A study of Mus musculus with 4 samples.

Results

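Cadherins and protocadherins were followed through the cell classes of the mouse BNST (bed nucleus of stria terminalis), which belongs to the extended amygdala. The genes were taken by name: every gene in the 4 count tables called Cdh followed by digits only, or with a name that begins with Pcdh. There were 55 such genes among the 20136 genes listed, of which 49 were listed in all 4 libraries. The naming rule uses no expression value, though earlier results of these data were known when the family was chosen. By family they were 4 type I and 13 type II classical cadherins, 3 other cadherins (Cdh13, Cdh23 and Cdh26), 11 protocadherins outside the gene clusters, and 24 clustered protocadherins, made up of 22 Pcdhb genes, Pcdha2 and Pcdhga9. Large cadherin-like genes with other names, such as the Fat and Celsr genes, are not members.

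The tissue was punched from wildtype C57BL/6J male mice and made into single-cell suspensions. Drop-seq was used: cells share droplets with barcoded beads that catch RNA by its 3' end, and a molecular barcode, or UMI, marks every molecule so that copies are counted once. The 4 libraries each pooled 6 mice (24 in all) and form a single group with no treatment, so every comparison sets cell classes of the same libraries side by side. Errors are SDs over libraries (n = 4 unless stated), that is, over pools of mice, except on log2 differences. Errors on log2 differences are SEs from the fit. Its variance estimates draw on all genes, so these SEs do not measure the spread over pools alone. Age is not given in the labels.

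Cadherins are calcium-dependent adhesion proteins of the cell surface. Classical cadherins bind like molecules on the neighbouring cell and are tied to actin through catenins. Type I and type II differ in the adhesive domain. Protocadherins lack the catenin-binding tail. Several of those outside the clusters, the delta group, bind regulators of actin, while the clustered alpha, beta and gamma genes are known for giving single neurons different combinations of surface proteins. In brain, members of the family are known for patterned expression that differs between neuron groups and nuclei.

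After filters, 4181 of 10200 barcodes were kept and 4087 passed a gate on marker UMIs. The gates use no member. They gave 2533 neurons, 919 oligodendrocytes, 142 oligodendrocyte precursor cells (OPCs), 404 astrocytes and 72 vascular cells (45 endothelial and 27 mural), with a further 10 microglia and 7 fibroblasts. Median depth was 3169 UMIs in neurons, 1386 in oligodendrocytes, 998 in OPCs, 812.5 in astrocytes and 798.5 in vascular cells. Among the neurons, 2175 were GABAergic, 81 glutamatergic and 277 neither by the gates. The summed neuron markers, at 14717 CPM in neurons, stood at 243 CPM in oligodendrocytes (1.65% of the neuron level), 1151 in OPCs (7.82%), 532 in astrocytes (3.61%) and 360 in vascular cells (2.45%). The gates themselves limit those values. CPM stands for the UMIs of a gene scaled to the total UMIs of the same class and library. In sums of cells, fewer cells that express a gene and fewer transcripts per cell cannot be told apart.

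Gated cells held 25440 UMIs of members. They were spread unevenly over the families: 13505 came from the 11 protocadherins outside the clusters, 3125 from Pcdhga9, 2889 from type II and 1649 from type I cadherins, 2024 from Pcdha2, 1024 from the 22 Pcdhb genes together and 1224 from the other cadherins. A total of 27 members had at least 100 UMIs, 26 had 1 to 99, and Cdh26 and Pcdhb8 had none in gated cells. The single most counted member was Pcdh17 with 4348 UMIs. When cells were thinned to 1000 UMIs, OPCs carried 3.54 ± 0.43 different members per cell (SD, n = 3), neurons 2.04 ± 0.27 (n = 4), astrocytes 1.75 ± 0.41 (n = 3) and oligodendrocytes 1.03 ± 0.07 (n = 4). The thinning leaves out 71 of 142 OPCs and 288 of 404 astrocytes, so these values describe the deeper cells.

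**Figure D1:**
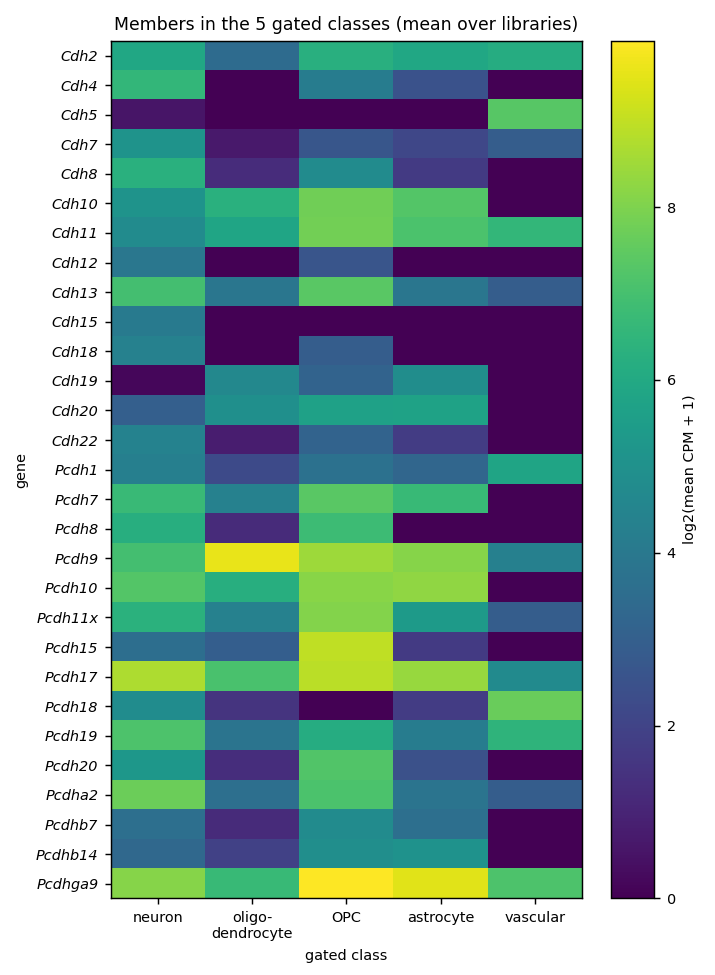
Level of the members with at least 100 UMIs in gated cells, and of Cdh5 and Cdh19, in 5 gated classes. Colour is log2 of the mean CPM over libraries plus 1. Cdh4, Cdh8, Cdh12, Cdh15 and Cdh18 are bright in neurons and dark in oligodendrocytes, Pcdh9 is brightest in oligodendrocytes (777 CPM), Pcdh15 in OPCs (502 CPM), and Cdh5 is bright in the vascular column only.

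To ask which classes carry each member, sums of UMIs per class and library were compared with all other gated cells of the same libraries in edgeR, with the library as a block and p-values adjusted over all genes tested. In neurons 25 of 28 members tested passed an adjusted p of 0.05, against 71.1% of all genes: 18 were higher (36.9% of all genes were) and 7 lower (34.3%). In oligodendrocytes 26 of 27 passed (67.9% of all genes), 5 of them higher (28.8%) and 21 lower (39.1%). In OPCs 13 of 28 passed (31.5%), 8 higher (8.54%) and 5 lower (22.9%). The 8 include Pcdhb9, which the low-count filter admitted in the OPC comparison alone. Calls of Cdh12, Cdh15, Cdh18, Cdh19 and Pcdhb14 given below also rest on entry through the sums where these genes are high. In astrocytes 21 of 27 passed (50.6%), 7 higher (18.9%) and 14 lower (31.7%). In vascular cells, tested in 3 libraries, 10 of 22 passed (18.3%), 1 higher (5.83%) and 9 lower (12.4%). The median size of the fitted log2 difference was 2.12 over the members and 0.89 over all genes for neurons, and 2.76 against 0.96 for oligodendrocytes. In a test of any difference among the 5 classes, 14 of the 14 members that could be tested passed, against 92.0% of all genes.

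The scaling moved the median of all genes: with TMM instead of library totals it was lower by 0.29 (log2) in neurons, 0.48 in OPCs and 0.64 in vascular cells, and higher by 0.45 in oligodendrocytes and 0.01 in astrocytes. Under library totals the OPC split became 10 higher and 1 lower (90.9% higher, against 61.5% under TMM), and the other 4 splits moved by less. The comparisons share cells: the other gated cells of a glial class are mostly neurons, so a fall in neurons and a rise in a glial class are not separate evidence. The cells that neurons were compared with are mostly oligodendrocytes (919 of 1554), so a gene higher in neurons can be as high in another glial class.

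Neurons carried most of the type I cadherins and a block of type II cadherins. All 3 type I genes tested were higher in neurons. Cdh4 (R-cadherin) measured 80.7, 74.2, 116 and 105 CPM in the neurons of libraries 1 to 4, and 2.63, 0, 3.51 and 2.43 CPM in the other cells. The groups lie far apart in every library (edgeR log2 difference 5.02 ± 0.34 SE, adjusted p = 1.86e-28). Oligodendrocytes held no Cdh4 UMI, at least 44.3-fold below the other cells. Cdh15 (M-cadherin, best known from skeletal muscle), on chr8:122847966-122867397, measured 19.7, 15.3, 11.9 and 15.5 CPM in neurons from 162 UMIs, and no UMI was found in any other gated cell, so neurons were at least 12.2-fold higher (adjusted p = 3.02e-09). The low-count filter admitted Cdh15 through the neuron sums alone, where it is high, so this p-value is no independent support. Cdh2 (N-cadherin) was less restricted: 58.6 ± 7.60 CPM in neurons, 59.99 in astrocytes, 76.4 in OPCs and 10.04 in oligodendrocytes. It passed as higher in neurons (log2 0.94) and lower in oligodendrocytes (log2 -2.07), and it did not pass in astrocytes (log2 0.21 ± 0.37 SE). Cdh3 (P-cadherin) had 1 UMI.

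Of 9 type II cadherins tested in neurons, 5 were higher and 4 lower, and none missed the threshold. The 5 that were higher are Cdh7, Cdh8, Cdh12, Cdh18 and Cdh22. Cdh8, a type II cadherin studied in axon targeting, measured 63.8, 103, 74.1 and 71.1 CPM in neurons and 1.32, 6.52, 5.27 and 0 CPM in other cells (log2 4.26 ± 0.33, adjusted p = 7.37e-24). Cdh7 measured 31.8, 35.6, 30.4 and 34.4 CPM against at most 3.51 in the other cells (log2 3.83 ± 0.47). Cdh22 measured 18.2, 14.8, 21.2 and 27.3 CPM against at most 4.34. The other cells held 3 UMIs, a ratio of 14.6 with a 95% exact counting interval from 4.93 to 71.6. No library of neurons overlapped with the other cells for these 3 genes. Cdh12 measured 12.3, 18.3, 12.6 and 14.6 CPM, with 1 UMI in all other gated cells (ratio 31.0, interval 5.47 to 1234). Cdh18 measured 21.4, 21.8, 21.2 and 13.2 CPM, also with 1 UMI elsewhere (ratio 43.2, interval 7.67 to 1716). These intervals cover counting error only. Cdh12 and Cdh18 entered the comparison through the neuron sums alone, so their calls are no independent support. Cdh12 overlaps Acot10 on the opposite strand, and Cdh2, Cdh8, Cdh13, Cdh20, Cdh23, Cdh24, Pcdh1, Pcdh7, Pcdh19, Pcdha2 and Pcdhga9 each overlap a listed gene in the same way. The counting strand is not given in the sources used here, so reads of such partners cannot be told apart. Cdh9, with 92 UMIs, all in neurons (at least 6.94-fold above the other cells), fell below the filter on low counts of the class comparisons.

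The promoter of Cdh12 is shown as an example of a neuron-restricted member, from RefSeq (GRCm38.p6, chr15:21111202-21111501, plus strand, 250 bases before to 50 after the RefSeq start, which lies inside the longer GENCODE gene). It holds neither of 2 motifs searched on both strands: ACAAAG, a core bound by SOX factors and found in 18.7% of 32851 promoters of this length, and TTCAGCAC, the left part of the RE1 element bound by the repressor REST, found in 1.17%. Of the 22 members with a promoter in that table, Cdh6, Cdh26, Pcdh8 and Pcdh18 hold the first and Cdh9 and Pcdh15 the second.
Cdh12: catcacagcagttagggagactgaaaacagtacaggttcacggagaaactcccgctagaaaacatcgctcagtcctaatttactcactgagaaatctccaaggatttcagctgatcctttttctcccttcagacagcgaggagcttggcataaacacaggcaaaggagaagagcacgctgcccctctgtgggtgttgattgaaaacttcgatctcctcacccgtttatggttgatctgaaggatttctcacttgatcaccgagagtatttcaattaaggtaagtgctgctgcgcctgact

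Another 4 type II cadherins ran the opposite way and were lower in neurons: Cdh10, Cdh11, Cdh19 and Cdh20. Cdh19, known from the glial lineage of peripheral nerves and on chr1:110888326-110977584, had 1 UMI in 2533 neurons and 49 elsewhere, a ratio of 0.00462 with a 95% exact counting interval from 0.000115 to 0.0270. It measured 22.4, 9.07, 29.8 and 34.5 CPM in oligodendrocytes and 44.6, 25.7, 29.0 and 13.2 CPM in astrocytes. It was higher in both classes than in the other cells (log2 4.53 ± 0.50 and 3.04 ± 0.62, adjusted p = 1.42e-13 and 4.35e-06). The low-count filter admitted Cdh19 through the sums where it is high, so these calls are no independent support. OPCs had 1 Cdh19 UMI, in library 2, and were not tested.

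Cdh10, Cdh11 and Cdh20 rose in all 3 glial classes. Cdh10 measured 264, 258, 190 and 158 CPM in OPCs, against 42.5, 36.3, 61.5 and 34.0 in the other cells (log2 1.84 ± 0.36, adjusted p = 2.48e-06). It was 153 ± 64.9 CPM in astrocytes, 77.0 ± 9.96 in oligodendrocytes and 33.6 ± 8.99 in neurons. Cdh11 (OB-cadherin) measured 224, 322, 190 and 158 CPM in OPCs against 27.7, 35.9, 38.4 and 36.4 (adjusted p = 2.13e-08). In astrocytes Cdh11 was 139 ± 71.3 CPM (log2 2.08), in oligodendrocytes 55.8 ± 22.7 and in neurons 26.3 ± 2.34. In oligodendrocytes the groups overlapped for Cdh11, since library 3 had 29.8 CPM against 44.7 in its other cells. Cdh20 was 52.2 ± 31.2 CPM in astrocytes, 50.8 ± 26.1 in OPCs, 30.2 ± 12.4 in oligodendrocytes and 7.05 ± 2.06 in neurons. The Cdh20 call in OPCs (9 UMIs, adjusted p = 0.0409) was lost when any one library was left out. The library values of OPCs and astrocytes overlapped for all 3 genes.

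**Figure D2:**
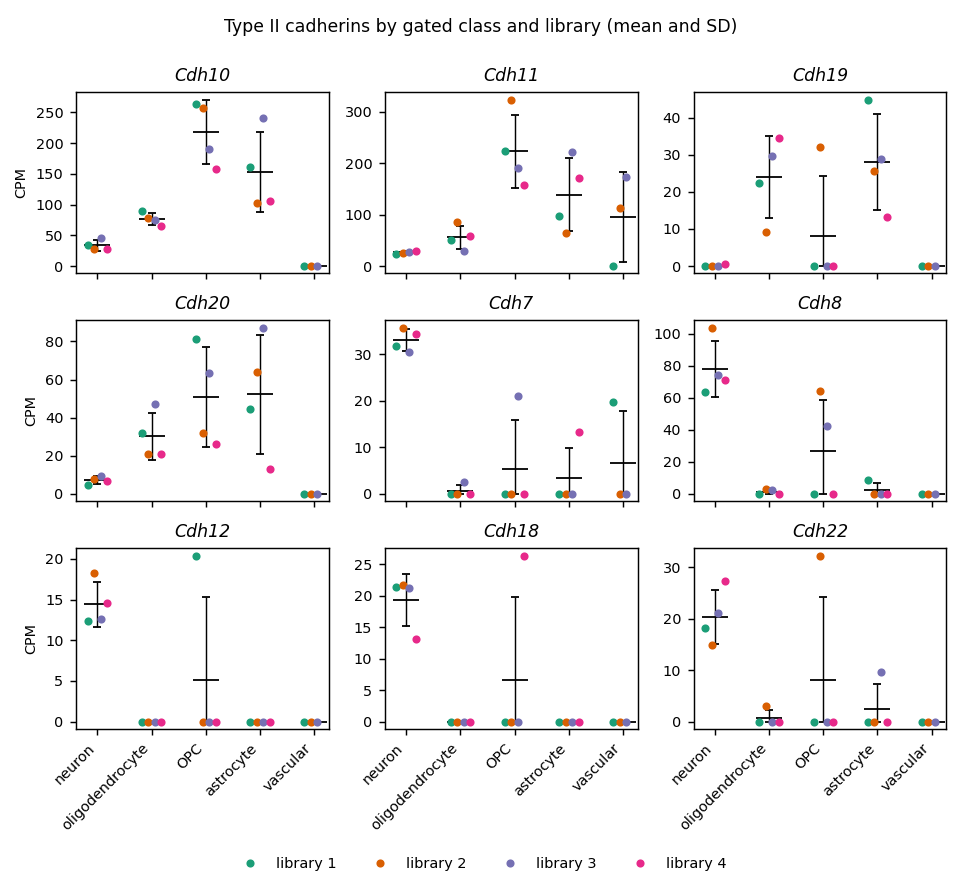
CPM of 9 type II cadherins by gated class (horizontal axis) in each library (coloured points), with mean and SD over libraries of at least 10 cells; SD bars are drawn no lower than 0. Cdh10, Cdh11, Cdh19 and Cdh20 are lowest in neurons among neurons, oligodendrocytes and astrocytes, while Cdh7, Cdh8, Cdh12, Cdh18 and Cdh22 are highest in neurons on average; single OPC points above 0 for Cdh12, Cdh18 and Cdh22 are 1 UMI each.

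Cdh13 (T-cadherin, which is held to the membrane by a lipid anchor and lacks a cytoplasmic tail) measured 103, 104, 138 and 154 CPM in neurons and 19.7, 13.0, 19.3 and 53.5 CPM in other cells. Every neuron value lay above every other value (log2 2.01 ± 0.19, adjusted p = 3.02e-18). It was 14.1 CPM in oligodendrocytes and 13.8 CPM in astrocytes, and 165 CPM in OPCs, where the difference did not pass (log2 0.17 ± 0.34). Cdh23, which pairs with Pcdh15 in the tip links of hair cells, had 4 UMIs in gated cells.

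The protocadherins outside the clusters were the family with the most counted molecules. Of these 11, 8 were higher in neurons, 2 lower (Pcdh9 and Pcdh15), and Pcdh10 did not pass. Pcdh9, a delta-1 protocadherin on chr14:93013410-93890679, measured 744, 880, 722 and 762 CPM in oligodendrocytes, against 105, 153, 149 and 125 CPM in the other cells. No other member was higher in oligodendrocytes among these 11 genes. The log2 difference was 3.00 ± 0.10 (adjusted p = 1.31e-46). OPCs stood at 357 ± 93.8 CPM, astrocytes at 275 ± 107, neurons at 124 ± 19.8, and 72 vascular cells held 1 UMI. At 1000 UMIs per cell, 11.5% ± 2.11 of neurons and 44.2% ± 4.55 of non-neuronal cells held a Pcdh9 UMI, lower in neurons in 4 of 4 libraries. An exact permutation that flips signs by library, two-sided, gave p = 0.13, which is as small as 4 libraries can give. Median depth before thinning was 3169 UMIs in neurons and 1130.5 in the others, and unthinned shares were 28.9% and 44.7%. The RefSeq promoter of Pcdh9 (GRCm38.p6, chr14:93890630-93890929, minus strand) is shown as that of the member with the clearest oligodendrocyte level, and holds neither motif.
Pcdh9: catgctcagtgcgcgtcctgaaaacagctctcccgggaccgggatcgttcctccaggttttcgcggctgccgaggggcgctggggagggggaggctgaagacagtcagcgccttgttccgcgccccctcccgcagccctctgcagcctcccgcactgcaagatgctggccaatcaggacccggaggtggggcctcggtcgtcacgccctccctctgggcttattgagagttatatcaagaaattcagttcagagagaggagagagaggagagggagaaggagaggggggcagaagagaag

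Pcdh15, on chr10:73099342-74649737, was concentrated in OPCs. It measured 529, 418, 401 and 658 CPM there, and 7.12, 7.75, 14.8 and 10.8 CPM in the other cells (log2 5.20 ± 0.33, adjusted p = 6.84e-55). The 142 OPCs held 83 of its 193 UMIs in gated cells, and 2533 neurons held 98. Oligodendrocytes, the cells that OPCs give rise to, had 6.87 ± 3.86 CPM, below the other cells by 0.96 on the log2 scale at an adjusted p of 0.0497, a call that was lost without any one library. The RefSeq promoter of Pcdh15 (GRCm38.p6, chr10:73821617-73821916, plus strand, at a start inside the GENCODE gene) is shown because the gene sets OPCs apart most strongly. Capitals mark the match to TTCAGCAC on the opposite strand.
Pcdh15: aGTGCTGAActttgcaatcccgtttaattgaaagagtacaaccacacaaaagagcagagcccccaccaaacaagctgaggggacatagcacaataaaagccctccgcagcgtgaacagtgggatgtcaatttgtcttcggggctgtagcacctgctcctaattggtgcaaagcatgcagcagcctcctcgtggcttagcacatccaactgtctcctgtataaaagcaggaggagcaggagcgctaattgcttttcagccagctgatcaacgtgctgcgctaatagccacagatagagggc

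OPCs had a wider set of members than the other glia. Pcdh20 measured 163, 129, 148 and 158 CPM in OPCs against 32.9, 32.6, 27.1 and 29.6 in the other cells (log2 1.83 ± 0.42, adjusted p = 8.97e-05). Its level was 1.48 CPM in oligodendrocytes and 4.46 in astrocytes, with 2 UMIs in each. Pcdh11x, on chromosome X, was 269 ± 91.5 CPM in OPCs against 69.0 ± 16.0 (log2 1.48). Pcdh8, which is induced by activity in neurons, was at 110 CPM in OPCs from 17 UMIs and did not pass (log2 0.31 ± 0.43). Pcdh8 had 2 UMIs in 919 oligodendrocytes and 0 in 404 astrocytes, at least 7.30-fold below the other cells. Among the falls, Cdh4 was at 16.9 ± 11.6 CPM in OPCs (3 UMIs) and Cdh8 at 26.7 ± 32.1, a call that was lost without library 1 or 4. Pcdh18 had no UMI in OPCs, at least 1.27-fold below the other cells, and that call was lost without any one library. OPCs also had the highest neuron-marker CPM of the 4 other classes tested (7.82% of the neuron level). The part of such RNA in these levels was not tested.

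**Figure D3:**
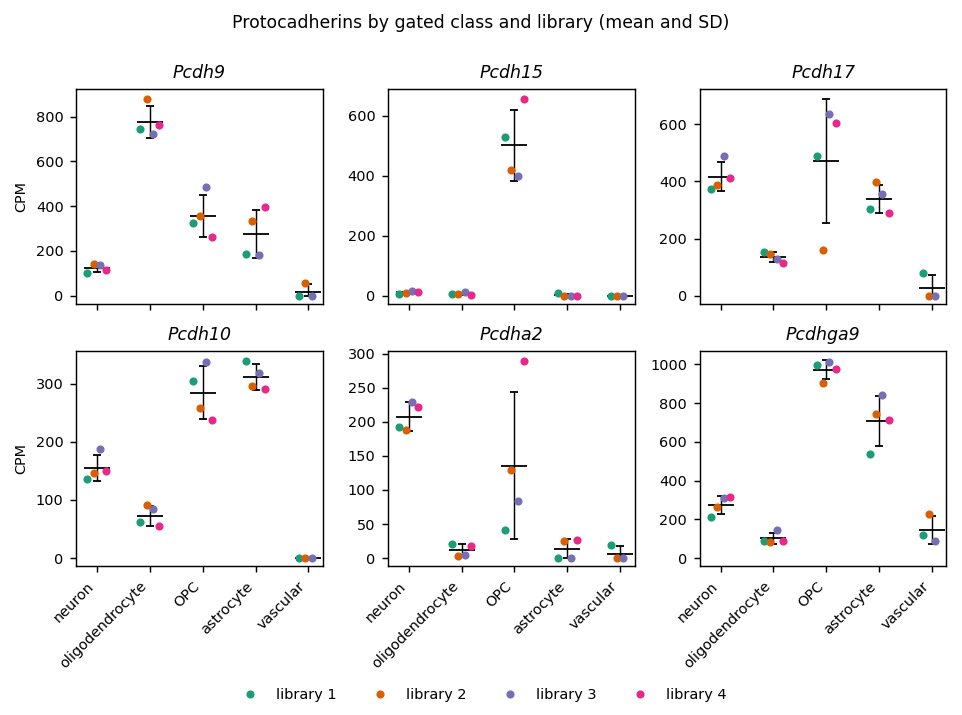
CPM of 4 protocadherins outside the clusters and of the alpha and gamma cluster genes by gated class (horizontal axis) in each library (coloured points), with mean and SD; SD bars are drawn no lower than 0. Pcdh9 is highest in oligodendrocytes in every library, Pcdh15 is low outside OPCs, and Pcdha2 is high in neurons (208 CPM) and low in oligodendrocytes and astrocytes (11.4 and 13.0 CPM).

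Pcdh10 and Pcdh17, delta-2 protocadherins that bind the WAVE actin regulator, were present in neurons and glia. Pcdh10 measured 339, 295, 319 and 291 CPM in astrocytes against 128, 140, 168 and 140 in the other cells (log2 1.14 ± 0.20, adjusted p = 3.19e-08). It was 284 CPM in OPCs, 155 in neurons and 72.9 in oligodendrocytes, where it was lower (log2 -0.71). Pcdh17 measured 374, 389, 490 and 413 CPM in neurons, against 190, 182, 209 and 190 in other cells (log2 0.81 ± 0.10). Astrocytes, at 337 ± 49.7 CPM, and OPCs, at 472 ± 217, did not pass. Oligodendrocytes, at 135 ± 17.4 CPM, were lower (log2 -1.14), at 32.5% of the neuron level. The neuron markers, which the gate itself limits, stood at 1.65%, and the part of neuronal RNA in this level was not tested.

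Pcdh19, the X-linked gene of a female-limited epilepsy, measured 96.5, 117, 185 and 167 CPM in neurons and 35.5, 10.9, 19.3 and 21.9 in other cells (log2 2.23 ± 0.21, adjusted p = 4.75e-14). Pcdh8 measured 53.7, 68.7, 104 and 71.5 CPM in neurons against 3.95, 10.9, 8.79 and 14.6 (log2 2.77). Neither gene's neuron values overlapped with the other cells. Pcdh7 and Pcdh20 were also higher in neurons than in all other cells together, with 105 ± 21.7 and 37.0 ± 2.34 CPM against 44.0 ± 8.23 and 13.2 ± 3.45. Single glial classes stood as high or higher. Pcdh7 was 167 ± 46.7 CPM in OPCs and 101 ± 15.6 in astrocytes, where it did not pass, and 19.3 ± 12.2 in oligodendrocytes. Pcdh20 was 149 ± 15.0 CPM in OPCs. Pcdh11x and Pcdh1 passed with overlapping groups (log2 0.65 and 1.25). The Pcdh1 call was lost without library 4.

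Vascular cells were few (72, of which 3 libraries had 10 or more), and each of their values rests on few UMIs. Cdh5 (VE-cadherin, the adherens junction protein of endothelium) had 24 UMIs in gated cells, of which 19 were in 45 endothelial cells (334 CPM), 0 in 27 mural cells and 5 in neurons. It fell below the filter and was not tested. In libraries 1 to 3, vascular cells had 13, 4 and 0 Cdh5 UMIs. Pooled, these 17 UMIs stood against 3 in the other cells, a ratio of 658 with a 95% exact counting interval from 190 to 3503. Pcdh18 was the single tested member that passed as higher in vascular cells: 59.0, 282 and 259 CPM in libraries 1 to 3 against 21.4, 15.0 and 25.1 (log2 2.27 ± 0.77, adjusted p = 0.0211). Its 11 vascular UMIs all lay in mural cells. Pcdh19 had 10 UMIs in endothelial and 1 in mural cells, and Cdh11 and Cdh2 had 4 each in mural cells and 0 in endothelial cells. Of the 9 members lower in vascular cells, 5 had no UMI in these 3 libraries. The Pcdh10 bound was at least 3.92-fold. Leaving out library 1 reduced the 10 calls to 2 and ended the Pcdh18 call, as did leaving out library 2 or 3 (5 and 6 calls left).

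The alpha and gamma clusters need care. In GENCODE the alpha cluster has 13 coding genes and the gamma cluster 22, yet the tables list 1 of each. The 12 other coding alpha genes share an exon with Pcdha2, and the 21 other gamma genes share one with Pcdhga9. A 3' method reads these shared last exons, so each row may hold UMIs of its whole cluster and is not assigned to a single gene here. The alpha row measured 193, 187, 230 and 221 CPM in neurons and 18.4, 15.2, 10.5 and 43.8 CPM in other cells, with no overlap (log2 3.03 ± 0.18, adjusted p = 5.48e-29). It was 11.4 CPM in oligodendrocytes and 13.0 in astrocytes, and 136 ± 109 CPM in OPCs.

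The gamma row had another distribution. It measured 535, 745, 840 and 713 CPM in astrocytes against 205, 246, 292 and 296 in the other cells (log2 1.46 ± 0.15, adjusted p = 3.51e-20). In OPCs it was 971 ± 49.5 CPM (log2 1.42 ± 0.18), and in oligodendrocytes 101 ± 28.6 (log2 -1.12). Neurons, at 275 ± 47.7 CPM, and other cells, at 276 ± 53.5, had the same mean level. The fitted fall in neurons (log2 -0.30, adjusted p = 0.00336) was -0.01 with library totals (adjusted p = 0.92), and it did not pass without library 3. Gamma made up 56.7% ± 2.93 of the alpha and gamma UMIs together in neurons, 89.5% ± 8.28 in oligodendrocytes, 88.2% ± 8.23 in OPCs and 98.3% ± 2.00 in astrocytes. In each of the 3 glial classes the share was above that of neurons in 4 of 4 libraries; no test was run on these shares.

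The 22 beta genes were listed one by one, at 0 to 114 UMIs each. Pcdhb21 and Pcdhb22 overlap on the same strand, so reads of this pair may not be told apart. Summed, the 22 genes stood at 97.7 CPM in neurons, 259 in OPCs, 75.4 in astrocytes and 37.5 in oligodendrocytes. Only 4 reached a class test and 2 passed in any. Pcdhb9 measured 122, 64.4, 42.2 and 78.9 CPM in OPCs, against 5.03, 6.12, 7.38 and 7.21 in the other cells (log2 3.16 ± 0.60, adjusted p = 1.37e-06). These were 13 UMIs, and every OPC value was above every other value. The low-count filter admitted Pcdhb9 in the OPC comparison alone, through the OPC sums where it is high. Its call and the separation of its values are therefore no independent support. Pcdhb14 was 32.7 ± 21.1 CPM in astrocytes against 8.79 ± 1.27 (13 UMIs, log2 2.02, adjusted p = 0.000906, lost without library 1). In this comparison the astrocyte sums, where it is high, carried Pcdhb14 past the filter, so its call is no independent support either. Pcdhb7 was the single member with at least 100 UMIs that passed in no comparison: 11.4 CPM in neurons, 11.4 in astrocytes, 26.9 in OPCs and 1.33 in oligodendrocytes. In single neurons, 657 of 2533 (25.9%) had any beta UMI. Of the 166 neurons with 2 or more beta UMIs, 118 had them from at least 2 beta genes and 48 from 1, and the most beta genes in a neuron was 5. At this depth a neuron with 1 beta gene is not shown to lack the others. Pcdhb21 and Pcdhb22 were counted as separate genes here despite their overlap.

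Within neurons, 11 GABAergic subtypes were gated by marker UMIs with no member among the markers: 1199 cells in all, with 976 GABAergic neurons in no subtype. A subtype was compared with all other GABAergic neurons of its libraries, and 10 subtypes could be tested. Of 233 pairs of member and subtype, 35 passed, 15 higher and 20 lower. Among all genes the share that passed ran from 1.12% (Six3/Ifi27l2a) to 15.6% (Ppp1r1b) over the 10 subtypes. Without the library block 13 passed, and with DESeq2 19. In the test of any difference among subtypes, 14 of 15 members tested passed (1690 of 4730 genes did, 35.7%), led by Pcdh17 (adjusted p = 5.65e-13), Pcdh18 (4.53e-10), Pcdh8 (1.45e-09) and Pcdh9 (1.79e-08). The one that did not was Pcdha2 (adjusted p = 0.0625). Without library 4, 9 passed. Those tested include no Pcdhb gene. All subtypes share the same comparison cells in large part, so their results are not independent of each other.

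**Figure D4:**
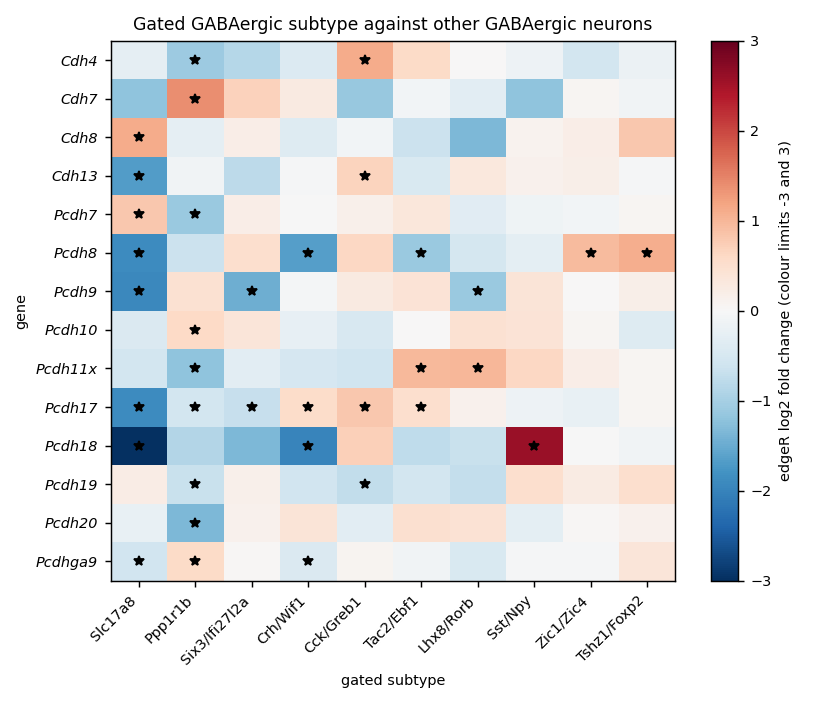
Fitted log2 difference of each GABAergic subtype (columns) from the other GABAergic neurons for the 14 members called in at least 1 subtype (rows). Stars mark an adjusted p under 0.05; red is higher and blue lower. The Slc17a8 and Ppp1r1b columns hold 8 and 9 stars, Pcdh17 has the most stars of any member, and Pcdh18 has the strongest red, in Sst/Npy neurons.

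Neurons gated on Sst and Npy, the precursors of somatostatin and neuropeptide Y, differed in 1 member, Pcdh18 (1 of 25 tested, higher; 1.9% of all genes passed and 1.3% were higher). Pcdh18, on chr3:49743296-49757325, measured 63.6, 74.0, 149 and 202 CPM in these neurons and 18.2, 14.7, 29.0 and 15.3 CPM in the other GABAergic neurons. The lowest Sst/Npy library was above the highest of the others (log2 2.58 ± 0.27, adjusted p = 5.02e-10), and the call held under every alternative in which the gene was tested. It was not tested with thinned cells. The 10 subtypes tested had no higher Pcdh18 mean than the 122 ± 65.3 CPM of these neurons, and vascular cells stood at 200 ± 122 CPM (n = 3). The RefSeq promoter of Pcdh18 (GRCm38.p6, chr3:49757267-49757566, minus strand) is shown because Pcdh18 passed as higher in these neurons. Capitals mark 2 matches to ACAAAG, both on the opposite strand.
Pcdh18: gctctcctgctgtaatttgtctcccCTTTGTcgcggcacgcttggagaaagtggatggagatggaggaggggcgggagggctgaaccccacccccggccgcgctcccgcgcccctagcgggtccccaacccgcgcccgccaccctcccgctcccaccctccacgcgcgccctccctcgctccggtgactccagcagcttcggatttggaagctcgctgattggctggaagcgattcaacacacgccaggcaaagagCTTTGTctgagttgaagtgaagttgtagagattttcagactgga

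The Slc17a8 gate, named for the vesicular glutamate transporter VGLUT3, took 74 neurons and differed in 8 of 22 members tested (4.17% of all genes passed), 6 lower (2.64%) and 2 higher (1.53%). Pcdh17 measured 80.4, 176, 144 and 71.2 CPM, against 378, 396, 516 and 433 in the other GABAergic neurons (log2 -1.88 ± 0.20, adjusted p = 8.56e-19). Pcdh9 measured 40.2, 11.7, 33.2 and 47.5 CPM against 99.96, 152, 135 and 110 (log2 -1.94 ± 0.37). Cdh13 measured 40.2, 58.7, 44.3 and 11.9 CPM against 99.4, 99.6, 136 and 153 (log2 -1.67 ± 0.35). All 3 genes had no overlap between the groups. Cdh8 ran the other way, with 174, 164, 144 and 154 CPM against 60.5, 98.5, 62.8 and 66.2 (log2 1.12 ± 0.26, adjusted p = 0.000789). Pcdh7 was also higher, at 161, 211, 232 and 131 CPM against 86.6, 120, 124 and 83.8 (log2 0.80 ± 0.23). Pcdh8 measured 0, 11.7, 22.1 and 47.5 CPM against 54.5, 69.9, 108 and 68.9 (log2 -1.88), Pcdh18 had 1 UMI against 239 (ratio 0.107, interval 0.00269 to 0.601), and the gamma row was at 190 ± 50.7 CPM against 281 ± 48.7 (log2 -0.58). The Pcdh17, Pcdh9 and Cdh8 calls held whichever library was left out. Those of Cdh13 (library 4), Pcdh8 (2 or 3), the gamma row (2 or 4), Pcdh18 (2, 3 or 4) and Pcdh7 (any) did not, and without library 2, 3 or 4 a count of 4, 5 or 4 remained.

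The Ppp1r1b gate, built on genes of striatal projection neurons, took 155 neurons and had 9 of 23 members called (15.6% of all genes), 3 higher (7.74%) and 6 lower (7.86%). Cdh7 measured 70.8, 73.9, 72.2 and 96.4 CPM, against 30.0, 33.7, 25.4 and 30.3 in the other GABAergic neurons (log2 1.38 ± 0.29, adjusted p = 0.000119). It was the single call here to hold under every alternative in which it was tested. Thinned cells were not among these alternatives. Pcdh11x measured 31.0, 31.7, 36.1 and 41.3 CPM against 62.6, 63.6, 115 and 92.7 (log2 -1.21 ± 0.30). Cdh4 measured 48.7, 10.6, 45.1 and 61.9 CPM against 78.9, 76.9, 123 and 110 (log2 -1.08). Pcdh7 measured 44.3, 63.3, 18.1 and 68.8 CPM against 91.1, 127, 141 and 87.2 (log2 -1.12, lost without library 3). Pcdh17 measured 288, 169, 316 and 337 CPM against 377, 397, 507 and 424 (log2 -0.56). The groups did not overlap for these 4 genes. The other 4 calls went against the general direction in 1 library each: Pcdh19 (log2 -0.66) and Pcdh20 (-1.34) lower, and Pcdh10 (0.60) and the gamma row (0.57) higher. Without the library block 4 of the 9 calls were left.

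Pcdh17 was called in more subtypes than any other member, 3 higher and 3 lower. Next came Pcdh8, with 2 higher and 3 lower. These counts also depend on depth, and Pcdh17 was the most counted member (4348 UMIs, against 685 for Pcdh8). Pcdh17 was higher in neurons gated on Cck and Greb1, on Tac2 and Ebf1, and on Crh and Wif1, and lower in the Slc17a8, Six3/Ifi27l2a and Ppp1r1b gates. In Cck/Greb1 neurons it measured 546, 539, 853 and 770 CPM against 357, 380, 425 and 400 (log2 0.81 ± 0.11, adjusted p = 9.95e-12). In Tac2/Ebf1 neurons it measured 462, 546, 731 and 589 CPM against 358, 372, 483 and 405 (log2 0.50 ± 0.11). In Crh/Wif1 neurons it measured 437, 628, 773 and 508 CPM against 365, 362, 463 and 407 (log2 0.54 ± 0.10). In the Six3/Ifi27l2a gate it measured 260, 291, 80.1 and 338 CPM against 377, 391, 511 and 422 (log2 -0.70, lost without library 2 or 3). The rises in Tac2/Ebf1 and Crh/Wif1 neurons had overlapping groups. These rises, and the falls in Six3/Ifi27l2a and Ppp1r1b, did not pass without the library block. Over the subtypes tested, the mean level ran from 118 CPM (Slc17a8) to 677 CPM (Cck/Greb1). Next below Cck/Greb1 came Crh/Wif1 (587 ± 147) and Tac2/Ebf1 (582 ± 113), which lie within each other's spread, and Ppp1r1b (277 ± 75.2) and Six3/Ifi27l2a (242 ± 113) lie within each other's spread at the lower end.

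In the Cck/Greb1 gate 4 of 23 members passed (5.61% of all genes), 3 higher (2.99%) and 1 lower (2.62%). Besides Pcdh17, Cdh4 measured 190, 85.2, 188 and 225 CPM against 67.9, 73.1, 103 and 101 (log2 1.11 ± 0.18, adjusted p = 1.68e-07). Cdh13 measured 134, 99.4, 166 and 342 CPM against 95.3, 97.7, 124 and 137 (log2 0.66, lost without library 4), and both overlapped with the other neurons. Pcdh19 was 92.1 ± 57.9 CPM against 147 ± 44.6, lower in 3 of 4 libraries (log2 -0.73, lost without library 1 or 3). In the Tac2/Ebf1 gate 3 of 24 passed (2.7%), 2 higher (1.19%) and 1 lower (1.51%): Pcdh17, Pcdh11x with 98.9, 130, 244 and 143 CPM against 55.1, 56.0, 104 and 84.9 (log2 0.97 ± 0.20), and Pcdh8, lower in 3 of 4 libraries (log2 -1.12, lost without library 1 or 3). In the Lhx8/Rorb gate 2 of 25 passed in 3 libraries (4.17%), 1 higher (1.33%) and 1 lower (2.84%): Pcdh11x was higher (151 ± 86.8 CPM against 67.6 ± 14.4) and Pcdh9 lower (60.3 ± 25.7 against 119 ± 25.8). Neither held without library 2 or 4.

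Pcdh9 was lower in the Six3/Ifi27l2a gate as well, where 2 of 24 members passed, both lower (1.12% of all genes passed and 0.757% were lower). It measured 47.3, 37.6, 64.1 and 35.6 CPM against 101, 152, 132 and 112 (log2 -1.46 ± 0.29, adjusted p = 0.000996, lost without library 2). The 2 groups did not overlap. Across the subtypes tested, Pcdh9 thus had its lowest means in the Slc17a8 (33.1), Six3/Ifi27l2a (46.1) and Lhx8/Rorb (60.3) gates, whose spreads overlap, and the other 7 lay between 107 and 155 CPM.

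Pcdh8 was the only member called in the Zic1/Zic4 and Tshz1/Foxp2 gates (1 of 21 and 1 of 23; 2.22% and 1.2% of all genes passed, 0.728% and 0.58% were higher, and 1.49% and 0.615% lower). It measured 62.6, 238, 173 and 95.6 CPM in Zic1/Zic4 neurons against 53.1, 59.0, 98.5 and 66.4 (log2 0.94 ± 0.26, adjusted p = 0.0216). In Tshz1/Foxp2 neurons it measured 102, 187, 235 and 83.5 CPM against 51.2, 62.7, 92.0 and 67.2 (log2 1.10 ± 0.23, adjusted p = 0.00281). Both sets of values overlapped with the other neurons, and both calls were lost without library 2 or 3, the second also without library 1. In the Crh/Wif1 gate, where 4 of 23 passed (6.03%), 1 higher (2.96%) and 3 lower (3.07%), Pcdh8 was lower, at 30.6, 29.1, 0 and 19.9 CPM against 55.7, 71.1, 114 and 73.4 (log2 -1.64 ± 0.32, adjusted p = 0.000346), a call that held under every alternative in which it was tested. That Pcdh8 call was not tested with thinned cells. Pcdh18 (6 UMIs, log2 -1.99) and the gamma row (log2 -0.44) were lower in the Crh/Wif1 gate too, and both calls were lost without library 1 or 2.

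**Figure D5:**
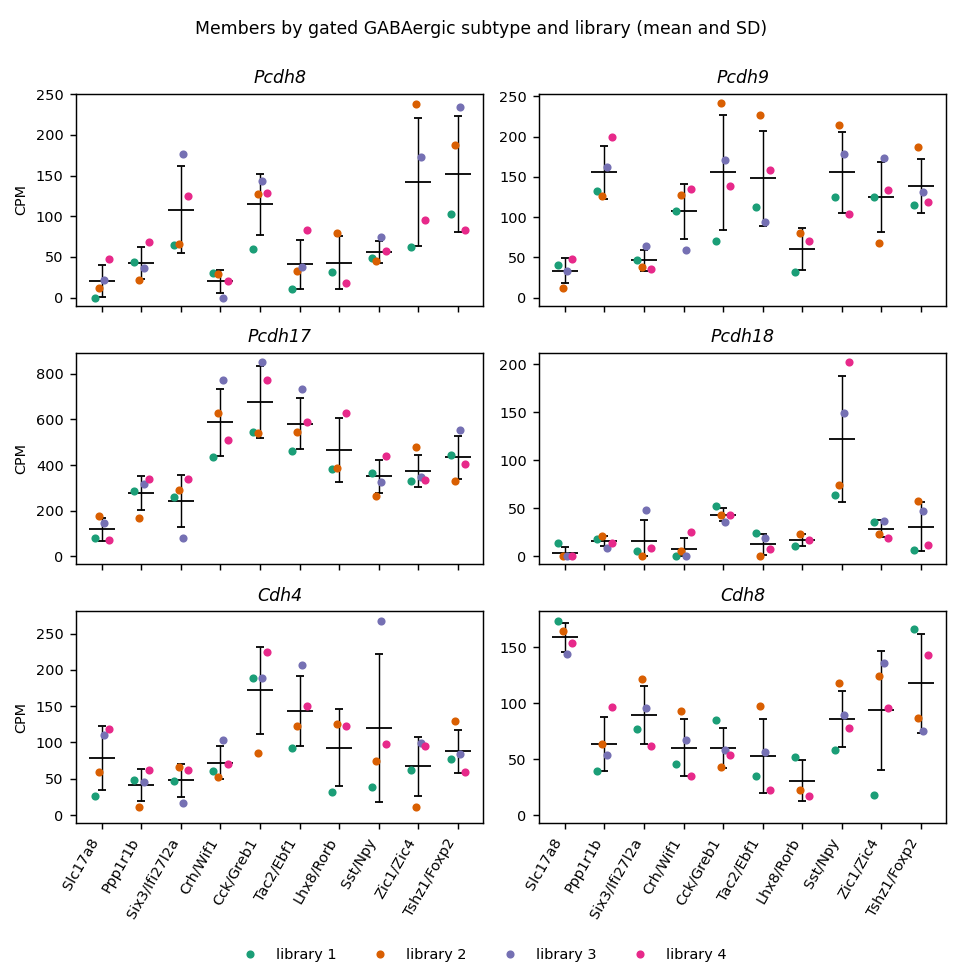
CPM of 6 members by gated GABAergic subtype (horizontal axis) in each library of at least 10 cells (coloured points), with mean and SD; SD bars are drawn no lower than 0. Pcdh17 runs from 118 CPM in Slc17a8 to 677 CPM in Cck/Greb1 neurons, Pcdh18 stands out in Sst/Npy neurons, and Cdh8 is highest on average in Slc17a8 neurons.

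The Prkcd gate, named for protein kinase C delta, held 37 neurons with 10 or more in 2 libraries, so it was not tested. Its pooled values were 194 CPM for Pcdh17, 337 for the gamma row and 171 for Pcdh19. Pcdh10 had 3 UMIs of 216766, or 13.8 CPM, while the pooled level was 150.0 CPM in all GABAergic neurons. Cdh18 had 12 UMIs, or 55.4 CPM, against a mean of 19.8 CPM in all GABAergic neurons. Pcdh18 had none, which allows up to 13.8 CPM. These genes were singled out after their values were seen.

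Glutamatergic neurons (81 cells, 3 libraries with 10 or more) were set against GABAergic neurons. Of 26 members tested, 2 passed, both higher (2.19% of all genes passed and 0.972% were higher). Cdh13 measured 131, 315 and 435 CPM in libraries 1, 2 and 4 against 98.2, 97.8 and 147 in GABAergic neurons (log2 1.01 ± 0.22, adjusted p = 0.000577). Pcdh20 measured 77.0, 118 and 68.7 CPM against 34.5, 36.8 and 34.2 (log2 1.23 ± 0.33, adjusted p = 0.012), with no overlap. With DESeq2 neither passed. Without library 1 Cdh13 remained, and without library 2 neither did.

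Catenins and other partners were read from the same fits. Their counts in neurons stand beside 36.9% of all genes higher and 34.3% lower. Of 14 catenin and junction genes tested in neurons, 7 were higher and 5 lower. Against all other cells, Ctnna2 and Ctnnd2, the neural alpha- and delta-catenins, were higher in neurons (log2 0.88 and 0.65), and Ctnna1 and Ctnnd1 (p120-catenin), the widely expressed ones, were lower (log2 -2.45 and -2.46). The glial classes were not alike. Ctnna1 stood at 159 ± 16.0 CPM in oligodendrocytes, 136 ± 30.8 in astrocytes, 34.2 ± 2.63 in neurons and 25.0 ± 37.3 in OPCs, where it passed as lower (log2 -1.73, adjusted p = 0.0345, 4 UMIs). Ctnna2 stood at 96.1 ± 13.1 CPM in neurons, 90.2 ± 48.1 in OPCs, 73.5 ± 23.7 in astrocytes and 32.1 ± 4.08 in oligodendrocytes, and it did not pass in OPCs or astrocytes. Jup (plakoglobin) was 81.7 ± 41.3 CPM in oligodendrocytes and 5.27 ± 1.83 in neurons. Ctnnd2 was at 337 ± 119 CPM in OPCs and 204 ± 28.1 in astrocytes, and it passed as higher in both (log2 1.15 and 0.97, adjusted p = 0.000181 and 0.00012). It was at 122 ± 28.5 CPM in neurons and 3.22 ± 2.78 in oligodendrocytes. Of 8 large or atypical cadherin genes, 6 were higher in neurons, among them the calsyntenins Clstn2 and Clstn3 and the planar polarity gene Celsr3 (log2 5.44, 4.55 and 4.57), and Fat1 and Fjx1 were lower. Fjx1, the counterpart of the fly gene four-jointed, was at 591 ± 43.8 CPM in astrocytes and 18.2 ± 3.01 in neurons.

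Of 2 nectins tested in neurons, 1 was lower. Of 15 protocadherin partners and regulators of the clusters, 5 were higher in neurons and 8 lower, with 36.9% of all genes higher and 34.3% lower. Cyfip2, of the WAVE complex, was 203 ± 55.1 CPM in neurons, 97.0 ± 35.4 in OPCs, 22.6 ± 8.07 in oligodendrocytes and 10.2 ± 7.57 in astrocytes. Cyfip1 was 159 ± 48.9 CPM in astrocytes, 89.3 ± 32.0 in OPCs, 42.6 ± 21.8 in oligodendrocytes and 41.8 ± 5.10 in neurons, and it did not pass in OPCs or oligodendrocytes. The kinase gene Ptk2b, which clustered protocadherins bind and restrain, was higher in the Ppp1r1b gate (log2 2.34 ± 0.17) and lower in the Cck/Greb1, Slc17a8 and Crh/Wif1 gates (log2 -2.33, -2.17 and -1.88), and it passed as lower in the Lhx8/Rorb gate too. Of the catenin and junction genes, Ctnna2, Ctnnb1, Magi1 and Pkp4 were higher in the Cck/Greb1 gate (log2 1.25, 0.71, 0.84 and 0.67), Pkp4 in the Lhx8/Rorb gate (log2 0.81), and Ctnna2 and Pkp4 were lower in the Ppp1r1b gate (log2 -0.98 and -0.57).

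Of the 95 calls in the class comparisons, 54 held under every alternative in which the gene was tested: 22 of 25 in neurons, 23 of 26 in oligodendrocytes, 5 of 13 in OPCs, 4 of 21 in astrocytes and 0 of 10 in vascular cells. Of the 35 subtype calls, 5 did: Pcdh18 in Sst/Npy, Pcdh17 in Cck/Greb1 and in Slc17a8, Cdh7 in Ppp1r1b and Pcdh8 in Crh/Wif1. Thinning to 1000 UMIs left 0 calls in Sst/Npy, Ppp1r1b and Crh/Wif1, so Pcdh18, Cdh7 and Pcdh8 there were not tested with thinned cells. It left 14 calls in neurons and 14 in oligodendrocytes, so some class calls counted as held were not tested with thinned cells either. Leaving out library 1 reduced the OPC calls from 13 to 8.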

How the data were processed

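Each of the 4 libraries is a deposited table of raw UMI counts per gene and cell barcode. Per the submitters' processing notes, the authors used bcl2fastq 2.18.0.12, STAR 2.4.2a and Picard 2.2.4, with the builds mm10 and GRCm38; the counting strand and annotation are not given in the sources used here. Barcodes with at least 400 genes and at most 10% mitochondrial UMIs were kept (4239 of 10200), 58 Scrublet doublets (1.37%, scanpy 1.11.5) were removed, and 11 barcode sequences occurred in more than 1 library, 0 of them among the kept cells. Kept cells held 4842995, 2504890, 2119143 and 2570716 UMIs in libraries 1 to 4. A cell entered a class with at least 3 UMIs of its markers from at least 2 genes and at least 2 times those of any other class. Subtypes needed 2 UMIs of their markers, or 4 for peptide genes. Sums over at least 10 cells, in at least 3 libraries, were tested with edgeR 4.0.16 (R 4.3.3; TMM, filterByExpr, robust quasi-likelihood test, library as block, Benjamini-Hochberg adjustment over all genes), and a call is an adjusted p under 0.05. The SE is the log2 difference over the square root of F. Sums of the same pool share a library, which is why the library number pairs them. A fold against 0 UMIs was bounded at 3 counts per group. On simulated counts with 200 genes changed 4-fold, the neuron comparison recovered 91% of them, astrocytes 69.5%, vascular cells 29%, Sst/Npy 88%, Zic1/Zic4 80.5% and glutamatergic neurons 72%.

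The members and lists were chosen with earlier results of these data known. In each comparison, at most 8 members past the threshold and changed the same way in every library were to be named by size of fold, with those of at least 100 UMIs that passed nowhere; other members given with values were chosen after their values were seen. The partner lists come from the same choice. All 55 members matched GENCODE vM21 (GRCm38) by name. Alternatives were DESeq2 1.42.0, other scaling, no filter, no library block, stricter cells and gates, doublets kept, thinned cells and leaving out each library; scaling by library totals was added after seeing the data.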

Additional observations from a re-analysis of the deposited data

Results flagged for a closer look

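In 14 of 118 sets of 4 libraries, 1 library stood apart from the other 3 by Dixon's criterion, where chance gives about 1 in 20 (5.9 of 118). Only 4 of them rest on 5 or more UMIs. Cdh18 in neurons was 13.2 CPM in library 4 (28 UMIs), with 21.2 to 21.8 CPM in the others. The gamma row, Pcdhga9, in oligodendrocytes was 143.9 CPM in library 3 (58 UMIs), with 84.7 to 89.5 in the others. Cdh7 in Ppp1r1b neurons was 96.4 CPM in library 4 (14 UMIs), with 70.8 to 73.9 in the others. Pcdh20 in Ppp1r1b neurons was 45.1 CPM in library 3 (5 UMIs), with 4.43 to 10.6 in the others, and it is the library that goes against the fall called there.

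The other 10 sets hold 1 or 2 UMIs in 1 library and 0 in the other 3. In neurons this was Cdh19 (0.471 CPM in library 4), and in oligodendrocytes Cdh7 (2.48 CPM in library 3) and Cdh22 (3.02 CPM in library 2). In astrocytes it was Cdh8 and Pcdh15 (8.92 CPM each in library 1), Pcdh20 (17.8 CPM in library 1), Pcdh18 and Cdh22 (9.66 CPM each in library 3) and Cdh7 (13.2 CPM in library 4). In Slc17a8 neurons it was Pcdh18 (13.4 CPM in library 1).

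Members were also counted outside the cells compared. The 5961 barcodes that failed the cell filters held 3503 member UMIs (1991 CPM), and the 94 kept cells that no gate took held 283 (2427 CPM), against 2134 CPM in gated cells.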

How the results depend on the processing

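Of the 132 member results called, 59 held under all alternatives in which they were tested, 72 did not pass under at least 1, and 1 changed its sign. This was Pcdhga9 in neurons, at 0.0048 (log2, edgeR adjusted p = 0.98) with at least 800 genes per cell and -0.30 as reported. The call was thus lost there, and no rise was found. The 95 class calls became 59 with at least 800 genes per cell, where vascular cells could not be fitted, and 45 with cells thinned to 1000 UMIs. The 35 subtype calls became 19 with DESeq2, 13 with no replicate block, 17 with at most 5% mitochondrial UMIs and 2 with thinned cells; leaving out each library gave 24 to 30. The 2 glutamatergic calls became 0 with DESeq2, 1 with no filter, 1 with no replicate block, 1 with at most 5% mitochondrial UMIs and 0 with thinned cells, and 0 to 2 with a library left out. The members that differed among subtypes, 14 as reported, were 9 to 13 with a library left out. Thinning to 1000 UMIs cuts counts and drops shallow cells, and it left 14 calls in neurons, 14 in oligodendrocytes, 7 in OPCs, 10 in astrocytes and 0 in vascular cells. Of the 132 results, 47 stayed the same with thinned cells, 46 were weaker and the rest were not tested. In astrocytes 21 calls became 4 with at least 800 genes per cell. Depth limits the 26 members with 1 to 99 UMIs, few of which could be tested, and all values in vascular cells. The causes of these changes were not tested.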
